A study of Homo sapiens with 2 samples.

Results

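The adaptors and effectors that act downstream of the tyrosine kinase SYK were described in Panc1 cells, a human line from a pancreatic ductal adenocarcinoma. The set held 10 genes (PLCG1, PLCG2, BLNK, SH3BP2, CBL, CBLB, GRB2, PIK3R1, BCL10 and MALT1) of the 19775 genes on the arrays, and it was chosen by gene symbol. Every probe set annotated with 1 of these symbols alone was taken, which gave 32 of the 41097 probe sets with 1 gene symbol. A probe set is a group of short probes that reads 1 stretch of a transcript.

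Expression was measured on Affymetrix arrays in 2 stable cell populations, Panc1/syk-wt, transfected with wild-type syk, and Panc1/mock, transfected with the vector alone. Both were kept under hygromycin for selection and had no other treatment. There was 1 array per population, so each value is a single measurement, no difference has a replicate check, and population, RNA preparation and array cannot be told apart. The labels call each population stable and do not say how many clones it was made from. Levels are log2 intensities after RMA, a normalisation that aligns the arrays and summarises the probes of each set, and differences are Panc1/syk-wt minus Panc1/mock on that scale.

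SYK binds phosphorylated receptor tails in immune cells and also acts below integrins. It phosphorylates scaffold adaptors such as BLNK, which gather phospholipase C gamma, GRB2 and phosphoinositide 3-kinase at the membrane. The phospholipase releases calcium and diacylglycerol, and protein kinase C then drives a complex of a CARD protein, BCL10 and MALT1 that activates NF-kappaB. The CBL proteins are ubiquitin ligases that end the signal by marking active kinases, SYK among them, for degradation.

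The SYK probe sets gave no clear check of the labels. The brightest of the 4 read 4.73 on the Panc1/syk-wt array and 4.27 on the Panc1/mock array. The other 3 were lower on the Panc1/syk-wt array, with differences of -0.27, -0.07 and -0.09. The highest control probe set against bacterial transcripts read 4.77, and this value was used as a floor under which signal was called dim. All 4 SYK probe sets were dim on both arrays, and the 3 weaker ones read between 2.98 and 3.37. SYK signal was thus not detected above the floor in either population. Whether the SYK probe sets lie within the introduced cDNA was not analysed here, so each direction below rests on the labels. The array medians were 4.24 (Panc1/syk-wt) and 4.26 (Panc1/mock). RNA integrity was read from control probe sets at both ends of ACTB, where the 3' level exceeded the 5' level by 2.37 on the Panc1/syk-wt array and by 1.95 on the Panc1/mock array. For GAPDH the excess was 0.32 on Panc1/syk-wt and 0.19 on Panc1/mock. The part of this 3' to 5' imbalance in the differences below was not tested. Of the markers of the labelled cell type, all 5 (KRT7, KRT8, KRT18, KRT19 and EPCAM) lay above the floor on both arrays. Their levels were not equal, with differences of -0.49, -0.76, -0.23, -1.45 and 0.30 in that order. Among blood cell markers, 0 of 4 for T lymphocytes, 0 of 5 for myeloid cells and 0 of 3 for all leukocytes lay above the floor on both arrays. For B lymphocytes, CD79A lay above it on both arrays (5.24 on Panc1/syk-wt and 5.06 on Panc1/mock) and PAX5 on 1 (4.77 and 4.74). Of 4 fibroblast markers, COL1A1 alone lay above the floor, at 10.06 on Panc1/syk-wt and 11.16 on Panc1/mock, a difference of -1.09. Of 3 endothelial markers, 0 lay above it on both arrays.

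Differences between the populations were modest across the set, and more of them were lower than higher in Panc1/syk-wt. Of the 32 probe sets, 21 were lower and 11 higher on the Panc1/syk-wt array, while 46.1% of all probe sets with 1 symbol were lower. The median difference over the 32 was -0.14, and over all 41097 it was 0.01. A 2-fold difference, a log2 value of 1 or more in size, was found in 1 of the 32 probe sets, a share of 3.12%, against 4.14% of all probe sets. By the probe set with the highest mean of each gene, 0 of the 10 genes differed 2-fold. Of the 12814 genes whose brightest probe set passed a brightness filter, 7.26% did so, and 9 of the 10 members were among them. These 9 had a median of -0.37, and the 12814 had a median of 0.01. Of the 9, 8 had values below 0, as had 47.8% of all filtered genes. With the mean over a gene's probe sets in place of the brightest, the median was -0.18 and 7 were below 0, and with the median over probe sets it was -0.11 and 6 were below 0. A smaller step of 1.5-fold, chosen after the values were seen, was passed by 8 probe sets that were lower in Panc1/syk-wt and 2 that were higher, 10 of the 32 in all. The 2 higher probe sets, of CBLB and BCL10, were dim on both arrays. The background shares were 6.62% lower, 7.57% higher and 14.2% either way. Of the 23 member probe sets with a value above the floor, 18 were lower, against 48.7% of all such probe sets, and 8 (34.8%) passed 1.5-fold, against 24.2% either way and 11.5% lower. The 8 lower probe sets came from SH3BP2, CBL, PIK3R1 and MALT1, and probe sets of 1 gene are not independent of each other. By brightest probe set, 1 of the 9 filtered members passed 1.5-fold, against 22.7% of all filtered genes.

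**Figure D1:**
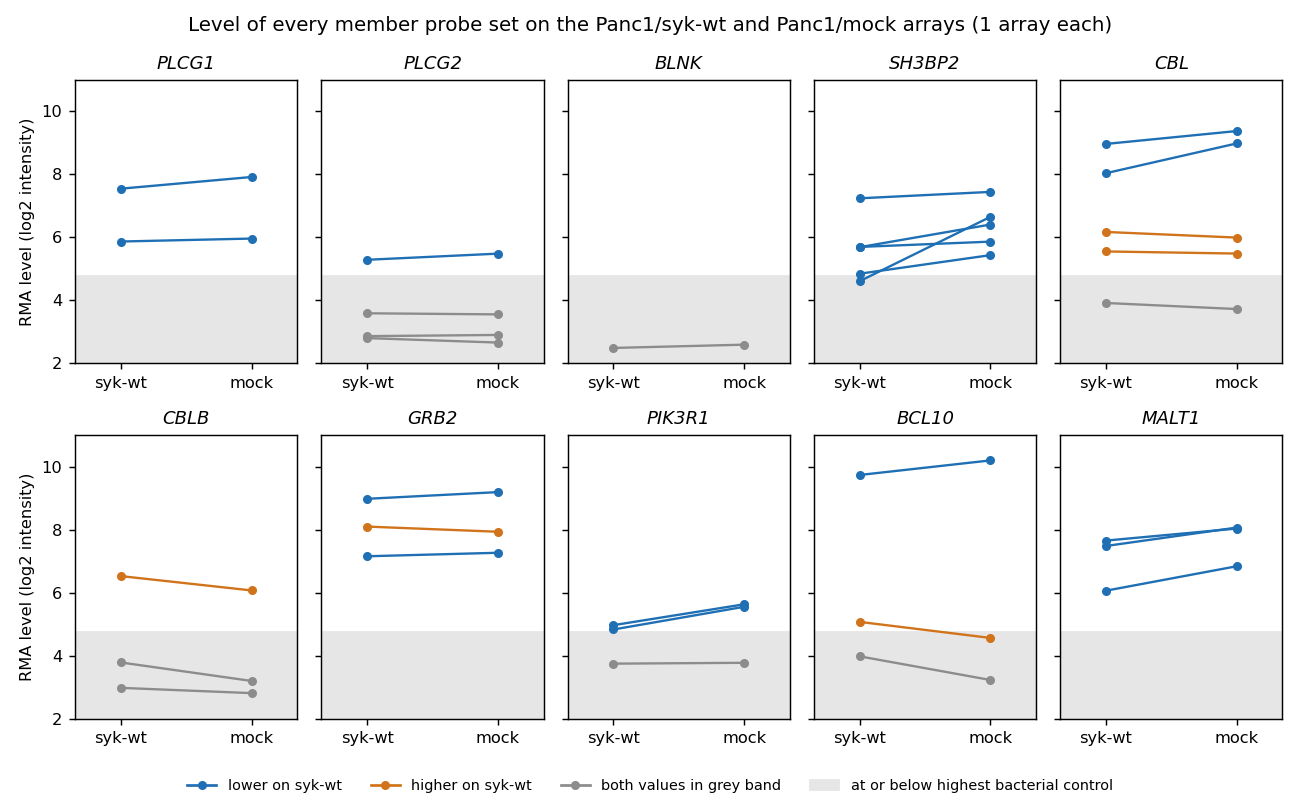
Level of each of the 32 member probe sets (log2 intensity after RMA, vertical axis) on the Panc1/syk-wt array (left point) and the Panc1/mock array (right point), 1 panel per gene and 1 line per probe set. The lines of MALT1, PLCG1 and SH3BP2 all slope up toward Panc1/mock, the only BLNK line lies in the grey band of dim signal at or below 4.77, and 1 SH3BP2 line joins 4.60 on Panc1/syk-wt and 6.64 on Panc1/mock.

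Among the scaffold adaptors, BLNK was dim in both populations and SH3BP2 gave the single 2-fold difference of the set. BLNK, the B cell linker that SYK phosphorylates, read 2.48 on the Panc1/syk-wt array and 2.58 on the Panc1/mock array by its only probe set. Both values lay under the floor, so no fold is given. SH3BP2, an adaptor that binds SYK and phospholipase C gamma and is mutated in the jaw disorder cherubism, was lower in all 5 of its probe sets. Its brightest probe set read 7.23 on Panc1/syk-wt and 7.44 on Panc1/mock, a difference of -0.20. Probe set 217257_at read 4.60 on Panc1/syk-wt and 6.64 on Panc1/mock. With the lower value raised to the floor it was at least 3.68-fold lower in Panc1/syk-wt. The probe sets of this gene thus gave the same direction and very unequal sizes.

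The other SH3BP2 probe sets lay between these extremes. Probe set 211250_s_at read 5.68 on Panc1/syk-wt and 6.40 on Panc1/mock, a difference of -0.72. Probe set 209371_s_at read 4.84 on Panc1/syk-wt and 5.43 on Panc1/mock, a difference of -0.59. Probe set 217253_at, annotated with the same GenBank record as 217257_at, read 5.69 on Panc1/syk-wt and 5.86 on Panc1/mock, a difference of -0.17. A pair of probe sets annotated to 1 record therefore differed in size by far more than the usual spread within a gene. The pooled SD of the difference among filtered probe sets of 1 gene was 0.35 over 6028 genes. The range of 1.88 among the SH3BP2 probe sets exceeded that of 99.2% of the 252 genes with 5 filtered probe sets, whose median range was 0.68. Which transcripts each probe set reads was not analysed here.

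GRB2, the SH2 and SH3 adaptor that links phosphotyrosine to the RAS exchange factor SOS, was bright and close to equal. Its brightest probe set read 8.98 on Panc1/syk-wt and 9.20 on Panc1/mock, a difference of -0.21. Its other probe sets differed by 0.16 and -0.11, so their sign was not the same.

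The phospholipases C gamma, which cut a membrane lipid into inositol trisphosphate and diacylglycerol, were both slightly lower by their brightest probe sets. PLCG1, the form found in most tissues, read 7.54 on Panc1/syk-wt and 7.91 on Panc1/mock, a difference of -0.37, and its other probe set differed by -0.09. PLCG2, the form known mainly from blood cells, read 5.28 on Panc1/syk-wt and 5.48 on Panc1/mock by its brightest probe set, a difference of -0.20. The other 3 PLCG2 probe sets were dim on both arrays and differed by between -0.04 and 0.14. PLCG2 signal above the floor therefore rested on 1 probe set.

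PIK3R1 had the largest difference of the set by brightest probe set. It encodes the regulatory subunit that brings class I phosphoinositide 3-kinase to phosphotyrosine. The brightest probe set read 4.97 on Panc1/syk-wt and 5.63 on Panc1/mock, 1.58-fold lower in Panc1/syk-wt. A second probe set read 4.83 on Panc1/syk-wt and 5.55 on Panc1/mock, a difference of -0.72. By the brightest probe set, the size of the PIK3R1 difference exceeded that of 81.9% of filtered genes. The third PIK3R1 probe set was dim on both arrays and differed by -0.03. Both measured probe sets lay near the floor on the Panc1/syk-wt array, where RMA compresses differences.

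The CBL ubiquitin ligases differed in sign by their brightest probe sets. CBL was lower by its 2 brightest probe sets. The first read 8.96 on Panc1/syk-wt and 9.37 on Panc1/mock, a difference of -0.41. The second, 225231_at, read 8.03 on Panc1/syk-wt and 8.98 on Panc1/mock and was 1.93-fold lower in Panc1/syk-wt, just short of the 2-fold threshold. The other 3 CBL probe sets differed by 0.18, 0.07 and 0.19, the last being dim on both arrays. CBLB was higher in all 3 of its probe sets, the only member of which this was so. Its brightest probe set read 6.53 on Panc1/syk-wt and 6.07 on Panc1/mock, a 1.37-fold difference. The other 2 were dim on both arrays and differed by 0.59 and 0.17. Whether the paralogs' differences are unequal beyond error could not be tested with 1 array each.

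**Figure D2:**
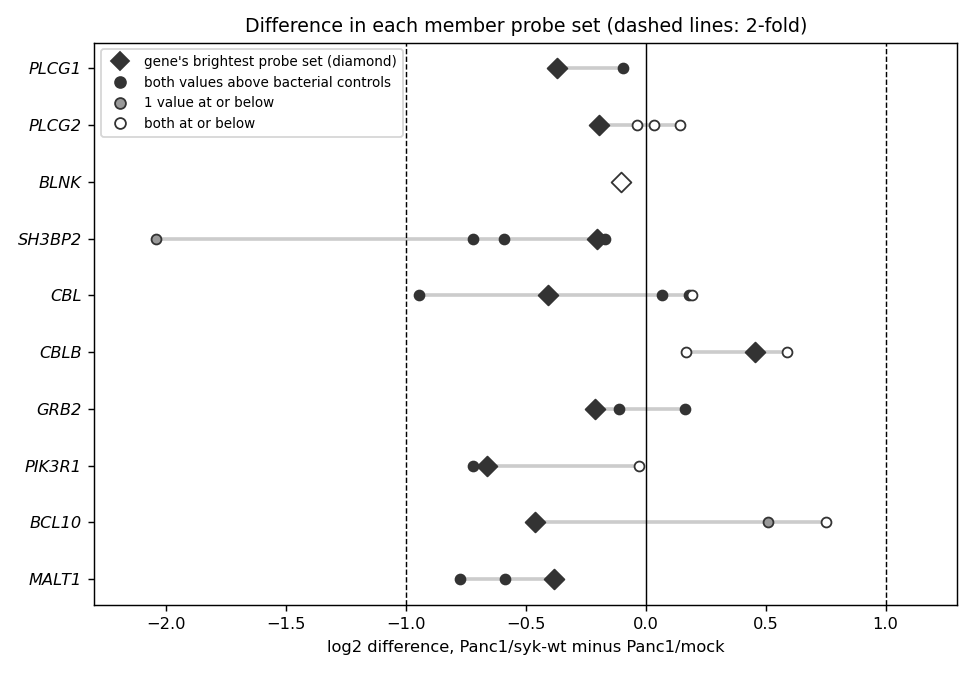
Log2 difference, Panc1/syk-wt minus Panc1/mock (horizontal axis), of every member probe set, with 1 row per gene, diamonds for the brightest probe set, and fill showing how many of its 2 values lay above the floor of 4.77. The only point beyond the dashed 2-fold lines is an SH3BP2 probe set at -2.04, CBLB alone lies wholly above 0, and BCL10 and CBL have points on both sides of 0.

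BCL10 and MALT1, which join to carry the signal to NF-kappaB, were both lower by their brightest probe sets. MALT1, the paracaspase of the complex, was lower in all 3 of its probe sets. The brightest read 7.65 on Panc1/syk-wt and 8.04 on Panc1/mock, a difference of -0.38. The others read 7.48 on Panc1/syk-wt and 8.07 on Panc1/mock (-0.59), and 6.06 on Panc1/syk-wt and 6.84 on Panc1/mock (-0.78). All 3 lay above the floor on both arrays. BCL10, the scaffold that forms filaments, read 9.74 on Panc1/syk-wt and 10.2 on Panc1/mock by its brightest probe set, 1.38-fold lower. Its other probe sets pointed the other way, at 0.51 and 0.75, and each had a dim value on at least 1 array. The direction for BCL10 thus depended on the probe set.

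The promoters of this pair are shown because the products act as 1 complex and their brightest probe sets were both lower in Panc1/syk-wt. The 250 bases before the start are taken from RefSeq (GRCh38.p14), where each of the 2 genes has 1 start, on the gene's strand 5' to 3', with capitals marking matches to the GC box GGGCGG on either strand. The MALT1 window is chr18:58671215-58671464 (plus strand) and the BCL10 window is chr1:85276633-85276882 (minus strand).
MALT1: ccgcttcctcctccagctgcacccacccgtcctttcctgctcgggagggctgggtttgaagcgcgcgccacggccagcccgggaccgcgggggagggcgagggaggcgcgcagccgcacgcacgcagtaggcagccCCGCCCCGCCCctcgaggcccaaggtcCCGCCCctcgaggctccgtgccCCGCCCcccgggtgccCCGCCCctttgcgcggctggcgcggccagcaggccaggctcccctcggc
BCL10: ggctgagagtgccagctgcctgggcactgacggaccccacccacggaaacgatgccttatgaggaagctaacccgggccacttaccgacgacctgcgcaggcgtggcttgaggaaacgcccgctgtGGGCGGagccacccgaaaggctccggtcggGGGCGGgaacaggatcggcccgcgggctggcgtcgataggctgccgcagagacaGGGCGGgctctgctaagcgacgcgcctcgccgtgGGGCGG
The MALT1 window holds 5 matches and is 78.8% G or C, and the BCL10 window holds 4 matches and is 70.0% G or C. A match was found in 8 of the 9 members with a window, and in 42.3% of the first listed windows of 27305 genes, whose median G or C content was 58%. The 9 windows ran from 40.4% (BLNK) to 82.8% (PLCG1) G or C, most of them above 58%. The shares were not compared among windows of like G or C content. The letters CCGGAAG (ETS) and TGACGTCA (CRE) were found on neither strand in any of the 9 windows, against 8.82% and 1.77% of all windows. The E-box CACGTG was found in the SH3BP2 window alone, against 6.49% of all windows. No match overlapped a match of another motif in the 9 windows. In each of the MALT1 and GRB2 windows, 2 GC box matches share 1 base. The arrays measured no binding to these sequences.

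Other genes of the pathway passed 2-fold about as often as filtered genes in general. A list of 101 such genes was grouped by role, 87 were analysed here, and 64 passed the brightness filter. Of the 64, 3 were higher and 3 lower in Panc1/syk-wt by 2-fold or more, 9.38% in all. Among all filtered genes the shares were 3.61% higher and 3.65% lower, or 7.26% together. With the floor 3 were higher and 2 lower. Plain _at probe sets, which left 47 genes of the list, gave 0 higher and 4 lower. Averaging all probe sets of a gene, or taking their median, gave 1 higher and 0 lower. Their median difference was -0.07. The 3 higher genes were RASGRP3, PPP3R1 and ITCH, and the 3 lower were NFATC2, VAV2 and ITPR2, of which NFATC2 no longer passed 2-fold with the floor. The brightest probe sets of all 3 higher genes, and of ITPR2 among the lower, were not plain _at probe sets.

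Among exchange factors, which load GTP on small G proteins, RASGRP3 and VAV2 parted. RASGRP3, a RAS activator that diacylglycerol recruits, read 7.02 on Panc1/syk-wt and 4.59 on Panc1/mock, at least 4.79-fold higher, while its other probe set differed by 0.38. VAV2, an exchange factor of the VAV family, read 6.16 on Panc1/syk-wt and 7.25 on Panc1/mock, 2.12-fold lower. The smallest difference among the 3 VAV2 probe sets was -0.02. The RASGRP3 difference was the largest of the 64 genes, and the phospholipases that make diacylglycerol, PLCG1 and PLCG2, were 1.29-fold and 1.14-fold lower.

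In the calcium and diacylglycerol branch, 13 of 20 genes (65%) were lower, against 47.8% of all filtered genes. By 2-fold or more, 3 differed (15%), against 7.26% of all filtered genes. PPP3R1, the regulatory subunit of calcineurin, read 6.93 on Panc1/syk-wt and 5.69 on Panc1/mock, 2.36-fold higher, and its other probe set differed by 0.14. NFATC2, a transcription factor that calcineurin activates, read 4.49 on Panc1/syk-wt and 5.66 on Panc1/mock, at least 1.86-fold lower with the floor and lower in all 4 probe sets. ITPR2, a calcium release channel opened by inositol trisphosphate, read 5.68 on Panc1/syk-wt and 6.75 on Panc1/mock, 2.11-fold lower. In 1 of its 4 probe sets the difference was 0.09.

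Among lipid kinases and phosphatases, 6 of 8 genes (75%) were lower, against 47.8% of all filtered genes. The 8 had a median of -0.41, and 0 passed 2-fold, against 7.26% of all filtered genes. The catalytic subunit PIK3CD, a partner of PIK3R1, read 6.70 on Panc1/syk-wt and 7.44 on Panc1/mock, 1.67-fold lower. The kinase AKT1, which acts on the lipid product, read 8.07 on Panc1/syk-wt and 8.57 on Panc1/mock, 1.42-fold lower. The differences of PIK3R1 and PIK3CD were of like size and sign, but PIK3R1 lay near the floor on Panc1/syk-wt. Whether the 2 genes change together was not tested.

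Of the CBL relatives and partners, ITCH, another ubiquitin ligase, read 8.82 on Panc1/syk-wt and 7.74 on Panc1/mock, 2.12-fold higher. Its 6 probe sets ran from -0.48 to 1.17. NEDD4, a related ligase, differed by -0.31. Among cytosolic adaptors, 0 of 12 passed 2-fold, against 7.26% of all filtered genes. CRKL, an adaptor that binds CBL, read 9.28 on Panc1/syk-wt and 8.43 on Panc1/mock, 1.80-fold higher, with its other probe set at 0.35. SHC3, of the SHC family of adaptors that recruit GRB2, read 4.71 on Panc1/syk-wt and 5.61 on Panc1/mock, at least 1.80-fold lower. The smallest difference among its 3 probe sets was -0.01.

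The membrane adaptors and signalling chains had 5 filtered genes, all above 0, with a median of 0.16. Among all filtered genes, 47.8% were below 0. Apart from PAG1, the 5 differed by only 0.02 to 0.18, less than the pooled SD of 0.35 within a gene. Another of them had a probe set at -0.24. PAG1, a raft adaptor that recruits the SRC inhibitor CSK, read 8.49 on Panc1/syk-wt and 7.59 on Panc1/mock, 1.87-fold higher. The smallest difference among its 3 probe sets was 0.05. CD79A, a chain of the B cell receptor, differed by 0.18, with its other probe set at -0.25. The 9 partners of the BCL10 and MALT1 complex had a median of -0.02 and 0 passed 2-fold, against 7.26% of all filtered genes. Of these partners, CASP8, a protease of death receptor signalling, read 7.55 on Panc1/syk-wt and 8.20 on Panc1/mock, 1.57-fold lower. In 1 of the 3 CASP8 probe sets the difference was 0.11. TAB1, a subunit of the kinase complex that activates the IKK kinases, differed by 0.37.

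**Figure D3:**
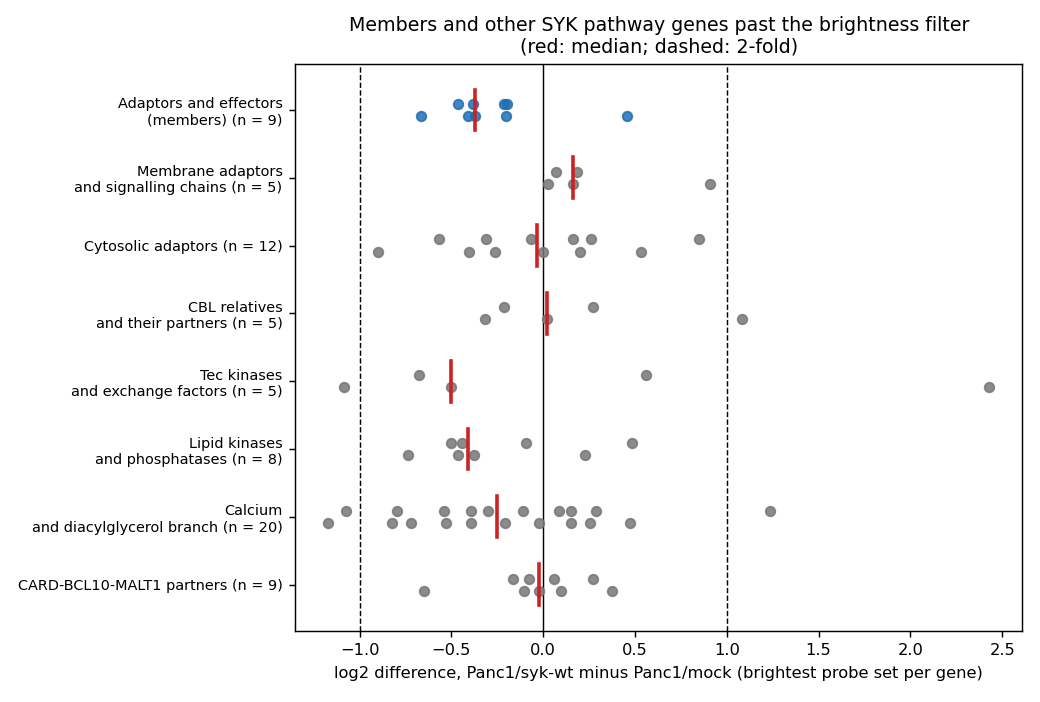
Log2 difference, Panc1/syk-wt minus Panc1/mock (horizontal axis), of the 9 filtered members in the top row and of 64 other SYK pathway genes by role, with 1 point per gene (brightest probe set) and red bars for medians. The members lie between -0.66 and 0.46 around a median of -0.37, while RASGRP3 at 2.43 stands farthest from 0.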

How the data were processed

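The deposited table holds log2 values for 54675 probe sets on 2 arrays, which the authors made with RMA, per the submitters' processing notes; its version and settings are not given in the sources used here. That the scale is log2 was taken from the values, which run from 2.14 to 14.6. The number of arrays limits the precision. Values identical to all 9 deposited decimals on both arrays were found for 2189 probe sets, 0 of them members.

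Gene symbols came from the platform annotation: 41097 had 1 gene symbol, 1801 several and 11777 were not named here. Gene IDs of 41043 matched RefSeq (GRCh38.p14), and 0 were renamed. A gene took its probe set with the highest mean, and counts used genes whose mean reached 4.25, the 50th percentile. The floor of 4.77 is the highest of 27 bacterial control probe sets. No p-value is given, since there is 1 array per group. The members, lists and floor were chosen with earlier results of these data known. Genes named outside the set are the 2 with the largest absolute difference in each role group and any past 2-fold. The gene step was tested on simulated data. Alternatives were median centring, loess (span 0.2), the floor, plain _at probe sets, mean or median over probe sets, no filter and the 75th percentile. Python 3.11.15, pandas 2.3.3 and statsmodels 0.14.6 were used. No array column was left unused.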

Additional observations from a re-analysis of the deposited data

How the results depend on the processing

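No paired analysis was possible because each group has 1 array. Under each of 8 other settings 0 member genes passed 2-fold, and under the 4 that bear on probe sets the count of member probe sets past 2-fold stayed at 1. The median over member genes lay between -0.40 and -0.11, and that over the other pathway genes between -0.10 and 0. Of 79 differences of single members under alternatives, 75 kept their sign and 0 passed 2-fold. Changing only the filter repeats each member's value, median centring shifts all values alike, and the floor changed BLNK alone. Much of this count was thus fixed in advance. The mean and the median over probe sets turned BCL10 to 0.27 and 0.51, the median turned CBL to 0.07, and the floor set BLNK to 0. SH3BP2 was -0.74 with the mean and -0.59 with the median over probe sets, and MALT1 was -0.78 with plain _at probe sets. The count of other pathway genes past 2-fold was 6, against 1 with the mean, 1 with the median and 2 when genes had to reach the 75th percentile. Over all genes the count was 930, against 581, 588 and 486 in that order. A threshold of 1.5-fold, chosen after seeing the data, gave 10 member probe sets, 1 member gene, 15 other pathway genes and 2904 of all genes. The causes of these changes were not tested.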

Other observations

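The genes next to each member on its chromosome were examined after the data had been seen, as the 5 filtered genes on each side in the RefSeq order. Around PLCG2 all 10 neighbours were higher in Panc1/syk-wt, with a median difference of 0.42 and a range from 0.04 to 0.89, while PLCG2 itself differed by -0.20. Around MALT1, 3 of 10 neighbours were lower and the median was 0.24, while MALT1 differed by -0.38. Around PIK3R1, 7 of 10 neighbours were lower, with a median of -0.06. Around CBLB the median was 0.09 and 3 of 10 were lower. Of the 10 members, 9 lay below the median of their neighbours and 1, CBLB, above it. The same 9 were below 0 by their brightest probe sets, and BLNK among them was dim on both arrays. The share of all filtered genes lying below the median of their neighbours was not computed. Copy number was not measured here.

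The spread among a member's filtered probe sets varied between genes. The pooled SD of the difference within a gene was 0.52 over the 7 members with several filtered probe sets and 0.35 over all 6028 such genes. Of the 7, SH3BP2, CBL and BCL10 exceeded 0.35 (0.76, 0.51 and 0.69), while PLCG1, GRB2 and MALT1 had 0.20 each and PIK3R1 had 0.04. Of the 9 member probe sets that were dim on both arrays, 6 were higher and 3 lower in Panc1/syk-wt, between -0.10 and 0.75. Among all probe sets dim on both arrays, 43.5% were lower.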
